A study of Arabidopsis thaliana with 12 samples.

Results

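The plastid genome of Arabidopsis thaliana encodes core subunits of every complex of the photosynthetic electron transport chain, and 46 of the 22746 non-control probe sets on the ATH1 array report these genes. They were chosen by the symbol of the single gene each probe set is paired with: psa (photosystem I, 5 probe sets), psb (photosystem II, 15), pet (cytochrome b6f, 6), ndh (the NDH complex, 10), atp (ATP synthase, 6), and 4 further genes, rbcL, ycf3, ycf4 and cemA. No measured value entered that choice. All 46 symbols were found on the plastid chromosome of RefSeq assembly TAIR10.1. Of the 47 distinct symbols there that the same rule would take, ndhB is the one without a probe set here. RefSeq holds 2 copies of it.

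The arrays were hybridised with total RNA from whole seedlings raised on agar plates with 1% sucrose after a cold treatment of the seeds. At 12 days (d) there were 4 groups: the wild types Col-0 and Col-7, the mutant etr1 (allele etr1-1), and the mutant labelled aba2/gin1-3. At 14 d there were Col-0 and the mutant ein2 (allele ein2-1). Each of the 6 groups had 2 arrays, and sucrose in the plates was common to all. ETR1 is an ethylene receptor and etr1-1 a dominant allele that makes the plant insensitive to ethylene, EIN2 carries the ethylene signal onward from the receptors, and ABA2 is an enzyme of abscisic acid synthesis. The series set each hormone mutant against wild type. No label names a wild type as the control for aba2, so values against Col-7 and Col-0 are both given. The genes ETR1, EIN2 and ABA2 are not paired with a probe set in the annotation used here, so the labels were not checked through them. The series' design text speaks of independent sets of array analyses, without saying what was independent or which arrays form a set. Nothing says that the 2 arrays of a group came from separate plants, and p-values then measure the spread between these samples, which may be technical.

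Photosystem II takes electrons from water, the cytochrome b6f complex passes them to plastocyanin, and photosystem I raises them to ferredoxin. The proton gradient built on the way drives the ATP synthase, and the NDH complex returns electrons from ferredoxin to the plastoquinone pool in cyclic flow. Plastid genes lie in clusters that are largely transcribed together and then cut into smaller RNAs. Each complex also needs subunits made from nuclear genes.

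Signals below are the deposited MAS5 intensities, which carry no unit. They are compared between arrays within a probe set, and between probe sets only where members are sorted by brightness. Differences are those of log2(signal + 50). Their standard errors (SE) and two-sided p-values come from 1 limma fit of the 6 group means to all 12 arrays. The p-values were adjusted by the Benjamini-Hochberg method over all 22746 probe sets, and a probe set is called where the adjusted p is under 0.05. Because of the offset of 50, differences of dim probe sets are smaller than the ratio of their signals. An exact permutation test of 2 arrays against 2 cannot give a p below 0.333, and the number of arrays limits the precision of every value.

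Some arrays stood apart from the rest. Across all probe sets, Col-0 replicate 1 at 12 d was most like Col-7 replicate 1 (r = 0.984), and less like its own replicate (r = 0.960), and replicate 2 was most like Col-7 replicate 2 (r = 0.977). The 5S rRNA control probe set read 216 to 431 on the 4 arrays of 14 d and 7.07 to 46.5 on the 8 of 12 d. The 25S rRNA control read 4442 in Col-0 replicate 2 at 12 d and 3537 in aba2 replicate 2, and 148 to 512 elsewhere. Ratios of the 3′ to the 5′ control probe sets were 2.02 to 3.71 for actin, 0.939 to 1.24 for GAPDH and 1.01 to 1.53 for ubiquitin. The part that these differences had in any result below was not tested.

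In some groups the members moved together between replicates, so that their counts do not stand for that many independent observations. In ein2, replicate 1 read higher than replicate 2 for 35 of the 46 members, in Col-0 at 14 d for 14 and in etr1 for 15. The split was closer to even in aba2 (23), Col-0 at 12 d (27) and Col-7 (18). Around any such shift, the log2 difference of replicate 1 and replicate 2 scattered between members, with an SD from 0.346 in etr1 to 0.578 in aba2.

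Of the 6 groups, Col-0 and Col-7 at 12 d had the highest median level of the members. Each member was first centred on its own mean over the 12 arrays, and the median over the 46 was then 0.182 and 0.198 on the 2 Col-0 arrays and 0.179 and 0.238 on the Col-7 arrays. It was -0.22 and 0.0254 in etr1, -0.135 and -0.21 in aba2, -0.269 and -0.0345 in Col-0 at 14 d, and 0.0814 and -0.0861 in ein2. All 4 arrays of the younger wild types therefore lay above the other 8. Over all 6 groups, 8 of the 46 members (17.4%) differed by limma's moderated F test, where 7.09% of all probe sets did. These were ndhF (adjusted p = 0.00614), ndhG (0.016), atpB (0.0229), psaA (0.0267), petD (0.03), psaB (0.0456), psbK (0.0463) and cemA (0.0474). Photosystem I and NDH gave 2 each, and photosystem II, cytochrome b6f, ATP synthase and the 4 further genes gave 1 each. The count was 4 after quantile normalization, and 2 without Col-0 replicate 2 of 14 d or without ein2 replicate 1.

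**Figure D1:**
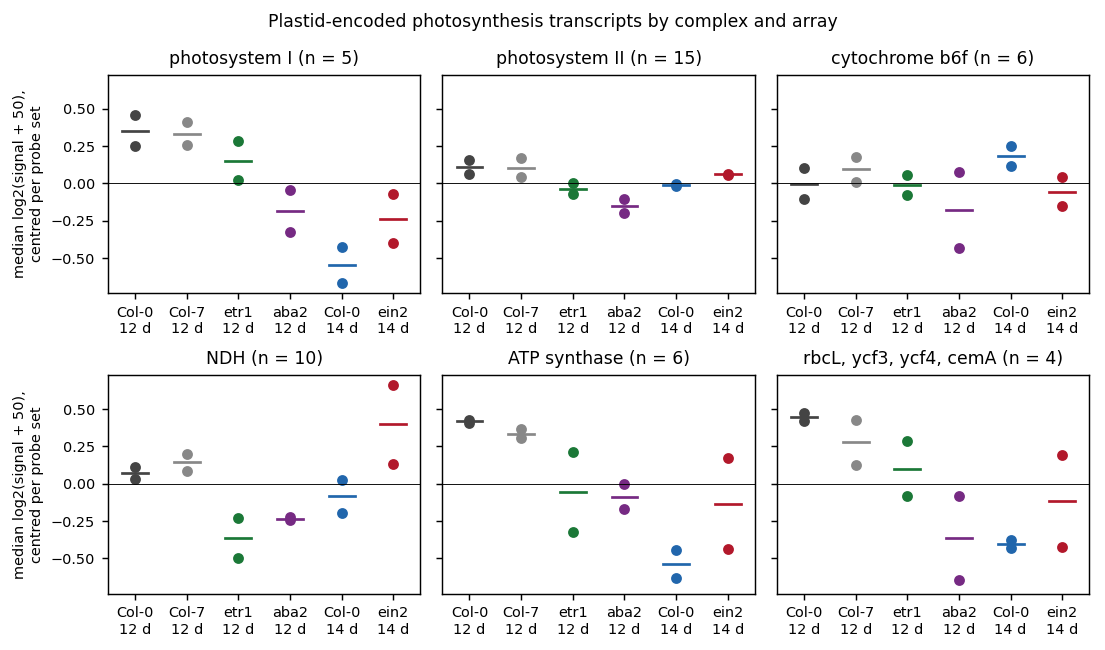
For each complex, the median over its members of log2(signal + 50), centred per probe set on the mean of the 12 arrays (vertical axis), is drawn for every array by group, with a bar at the mean of the 2 arrays. Photosystem I and ATP synthase sit lowest in Col-0 at 14 d (-0.549 and -0.539), while photosystem II stays between -0.198 and 0.17 on every array.

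The complexes differed in how far they spread over the groups. ATP synthase had its highest group mean in Col-0 at 12 d (0.418 ± 0.0172, SD, n = 2) and its lowest in Col-0 at 14 d (-0.539 ± 0.134), and photosystem I ran from 0.353 ± 0.145 to -0.549 ± 0.171 over the same groups. NDH ran instead from -0.363 ± 0.193 in etr1 to 0.399 ± 0.373 in ein2. Photosystem II ran from -0.15 ± 0.0678 in aba2 to 0.109 ± 0.0643 in Col-0 at 12 d, and cytochrome b6f from -0.178 ± 0.362 in aba2 to 0.183 ± 0.0915 in Col-0 at 14 d. The range over groups was thus widest for photosystem I and ATP synthase among these 5 complexes and narrowest for photosystem II. No test was made between complexes.

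The comparison of Col-0 at 14 d with 12 d shows what age, or anything else that separated those harvests, did to these signals in the wild type. Signals for the photosystem I core, the catalytic part of the ATP synthase and the envelope protein CemA fell, and the signal of ndhF rose. Of the 46 members, 6 fell (13%), where 0.8% of all probe sets did, and 1 rose, where 2.63% of all did. The 6 that fell all had mean signals over 5000 in Col-7, and ndhF, at 21.4, was the dimmest member. The median over the members was -0.41, against 0.01 over all probe sets, and 13 of the 46 lay above 0, where 51.1% of all probe sets did. At an unadjusted p under 0.05 there were 19 members below 0 (41.3%, against 6.56% of all) and 4 above (8.7%, against 9.64%). In samples of whole seedlings, fewer cells of a type and less RNA per cell cannot be told apart.

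In photosystem I, psaA encodes one of the pair of large proteins that bind the reaction centre chlorophylls, and psaB the other. The psaA signal was 9857 and 6828 at 12 d and 2325 and 3132 at 14 d. Both older arrays lay far below both younger ones, a fall of 3.0-fold (log2 difference -1.59 ± 0.277, adjusted p = 0.0136). psaB went from 19988 and 20072 to 8669 and 10258, again with no overlap (-1.08 ± 0.212, adjusted p = 0.0225). The remaining members did not pass: psaI, a small membrane subunit, stood at -0.97 (adjusted p = 0.0679), psaJ, another, at -0.69, and psaC, which carries the iron-sulfur centres that hand electrons to ferredoxin, at -0.49. For all 5 photosystem I members, both older arrays lay below both younger ones.

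In the ATP synthase, 3 of 6 members fell, all of them subunits of the CF1 head that makes ATP. atpB, for the catalytic beta subunit, read 32598 and 33674 at 12 d and 19050 and 17238 at 14 d (-0.87 ± 0.164, adjusted p = 0.0193). atpE, for the epsilon subunit, read 28464 and 27326 and then 15308 and 15584 (-0.85 ± 0.174, adjusted p = 0.0277). atpA, for the alpha subunit, read 16297 and 15488 and then 6478 and 8885 (-1.06 ± 0.224, adjusted p = 0.0308). In each of the 3 the groups were separated by a wide gap. The CFo members, which sit in the membrane, missed the threshold, although atpH and atpF had lower values than these 3. atpH, for the ring subunit that rotates, had the lowest value of all 46 members (-1.60 ± 0.42, adjusted p = 0.0716) and passed with the filter at the 40th percentile of mean signal (adjusted p = 0.0499), and atpF, for the stalk, stood at -1.26 (adjusted p = 0.0588). atpI, for the subunit beside the ring, read 309 and 288 at 12 d and 216 and 380 at 14 d, so that its groups overlapped (-0.04).

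**Figure D2:**
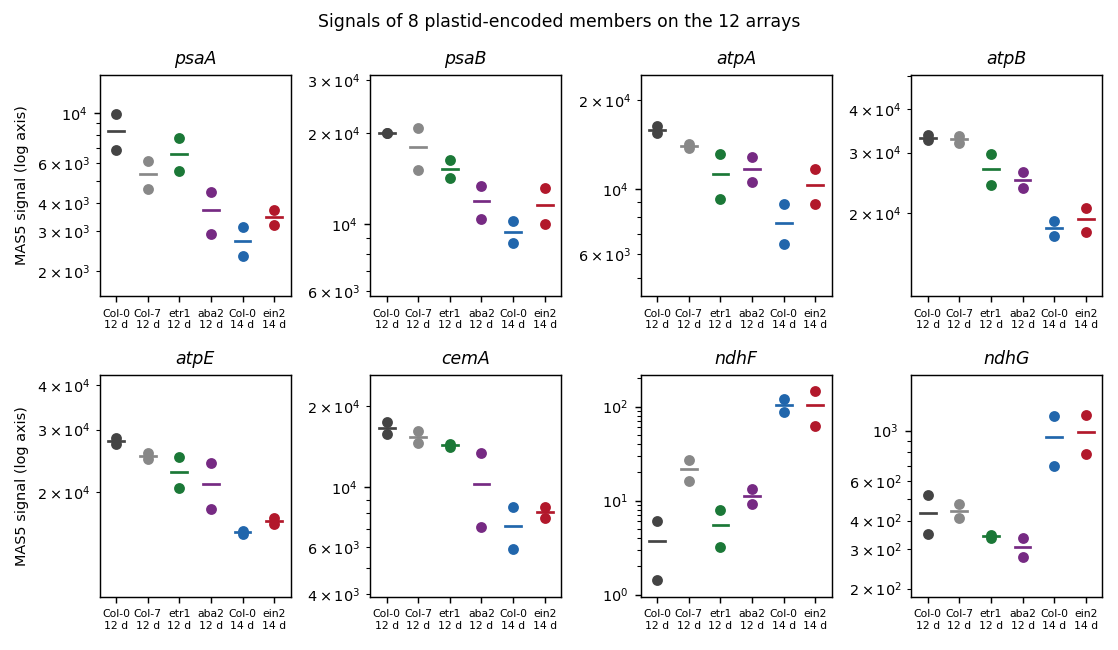
Signals of 8 members on the 12 arrays (log axis, 2 points per group and a bar at their mean). psaA, psaB, atpA, atpB, atpE and cemA are lower in Col-0 at 14 d than at 12 d, and ndhF and ndhG are higher on all 4 arrays of 14 d, ein2 included, than on all 8 of 12 d.

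Photosystem II had 15 members and no call by limma, with 4 at an unadjusted p under 0.05. psbA encodes the D1 protein, which is damaged by light and replaced more often than other subunits. Its signal was 6036 and 6886 at 12 d and 2879 and 4430 at 14 d, without overlap (-0.84 ± 0.283, adjusted p = 0.161). psbC, for the inner antenna protein CP43, was the lowest of the complex and just missed the threshold (-1.09 ± 0.26, adjusted p = 0.0503). psbK, for a small subunit, stood at -0.92 (adjusted p = 0.0787) and psbD, for the reaction centre protein D2, at -0.55. The other members were closer to 0, up to psbN, which is needed for assembly in tobacco, at 0.30. Of the 15, 9 lay below 0 and 6 above, with a median of -0.14, which was 0.04 after quantile normalization.

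The cytochrome b6f complex was split evenly. Its members petA (cytochrome f, -0.85), petL (a small subunit, -0.84) and petB (cytochrome b6, -0.15) lay below 0. petD (subunit IV, 1.21), petN (1.2) and petG (1.08), the latter pair small subunits, lay above it. None passed, with petD the nearest (adjusted p = 0.0719). petD read 124 and 116 at 12 d and 251 and 465 at 14 d, so that its arrays did not overlap. petB read 21858 and 20236 at 12 d and 18880 and 19034 at 14 d, also without overlap, and its difference was 0.20 after quantile normalization. petG read 772 and 199 on the younger arrays and 1213 and 672 on the older ones, which overlapped. The median of the complex, 0.46, was 0.01 without Col-0 replicate 2 of 12 d.

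In the NDH complex 1 member was called. ndhF, for a large membrane subunit, read 5.99 and 1.43 at 12 d and 87 and 121 at 14 d (1.51 ± 0.234, adjusted p = 0.00796). Its level at 12 d was under the offset, which therefore set the size of the difference: it was 3.06 with an offset of 10 and 0.72 with 150, and the call remained in both. It was the highest of the 46 with an offset of 50 but not with 150, where petD stood at 0.88. ndhG, for another membrane subunit, went from 517 and 349 to 700 and 1164, without overlap, and missed the threshold (1.00 ± 0.268, adjusted p = 0.0766). ndhE stood at 0.58, and the remaining 7 lay between -0.06 for ndhC and -0.54 for ndhJ, for a median of -0.19 over the 10, or 0.01 after quantile normalization.

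Among the 4 further genes, cemA, for a protein of the inner envelope membrane, fell from 17455 and 15829 to 8448 and 5886 (-1.23 ± 0.268, adjusted p = 0.0346). ycf4, for a photosystem I assembly factor, stood at -1.2 (adjusted p = 0.104) and ycf3, for another, at -0.60. rbcL, for the large subunit of Rubisco, the enzyme that fixes carbon dioxide, read 1112 and 1393 at 12 d and 1239 and 1457 at 14 d, and these overlapped (0.11).

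**Figure D3:**
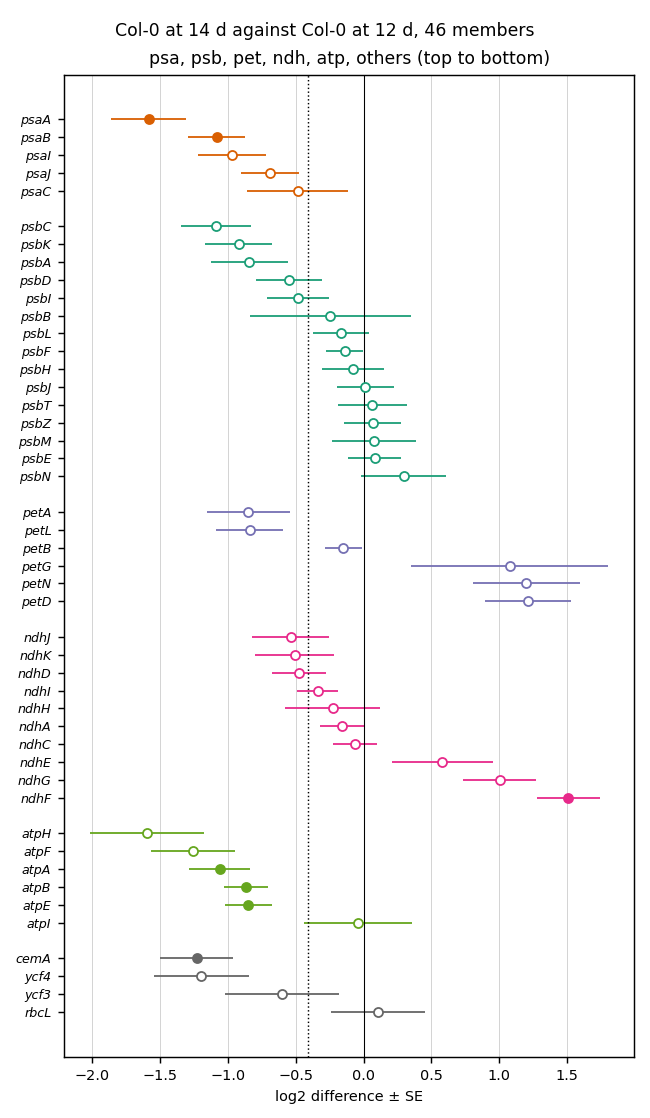
Log2 difference of Col-0 at 14 d minus 12 d for each member (points, with SE), ordered within psa, psb, pet, ndh, atp and the further genes; filled points passed the threshold and the dotted line is the median of the members, -0.41. The 6 filled points left of 0 are psaA, psaB, atpA, atpB, atpE and cemA, and the filled point at 1.51 is ndhF.

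The calls with age hung on single arrays. The number of members called was 0 without Col-0 replicate 1 of 14 d, 1 without replicate 2 of 14 d (psaA, adjusted p = 0.0473), 4 without replicate 1 of 12 d and 8 without replicate 2 of 12 d. It was 2 after quantile normalization (psaA and ndhF), 11 with arrays centred on the median or with dim probe sets left out, and 0 in a fit of the 4 Col-0 arrays alone. The direction of the 7 called members was the same under each of these, apart from ndhF, which both filters on dim probe sets removed. The median of the members was -0.24 without Col-0 replicate 1 of 14 d and -0.26 after quantile normalization. In the comparison of Col-0 arrays, 24 members had both older arrays below both younger ones, 52.2% of the members against 20.6% of all probe sets, and 5 had them above (10.9% against 23.3%).

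The ein2 arrays are the other samples of 14 d, and differ in genotype too. When the 4 arrays of 14 d were set against the 8 of 12 d, a count added after the values had been seen, ndhF, ndhG, petD and petN were higher on all of the older arrays, 8.7% of the members, against 4.57% of all probe sets. atpB, atpE and psbK were lower on all of them, 6.52% against 4.21%. These are small counts, 4 and 3 of the 46. psaA read 2934 on 1 aba2 array of 12 d, within its range of 2325 to 3735 at 14 d, and so did not separate the ages.

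The clusters in which plastid genes lie were compared as well, with 11 clusters taken from the RefSeq gene order after the values had been seen. In the cluster psaI-ycf4-cemA-petA, which crosses 3 kinds of member, all 4 differences lay between -0.85 and -1.23. In atpB-atpE they were -0.87 and -0.85, and in psaA-psaB -1.59 and -1.08. In psbE-psbF-psbL-psbJ, by contrast, they lay between -0.16 and 0.08. In psbK-psbI the differences were -0.92 and -0.49. psbD-psbC-psbZ was spread wider, with -0.55, -1.09 and 0.07, as was ndhC-ndhK-ndhJ, with -0.06, -0.51 and -0.54.

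Other clusters held a member that stood apart from its neighbours. In atpI-atpH-atpF-atpA, atpI (-0.04) differed from the -1.06 to -1.60 of the other 3, and rps2, a gene for a ribosomal protein on its other side, fell (-1.29 ± 0.212, adjusted p = 0.0103). In psbB-psbT-psbH-petB-petD, petD was at 1.21 and the other 4 between -0.24 and 0.07. In the cluster that runs from ndhH to ndhD, ndhG (1.00) and ndhE (0.58) lay between ndhI (-0.34) and psaC (-0.49). petG (1.08) lay between petL (-0.84) and psaJ (-0.69). rps14, for another ribosomal protein and the neighbour of psaB, rose from 78.3 and 68.2 to 254 and 489 (1.72 ± 0.401, adjusted p = 0.046) while psaA and psaB fell. The members apart from their neighbours were among the dimmer ones. Their mean signals in Col-7 were 128 for petD, 295 for atpI, 442 for ndhG, 618 for petG and 875 for ndhE. No difference between neighbours was tested.

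**Figure D4:**
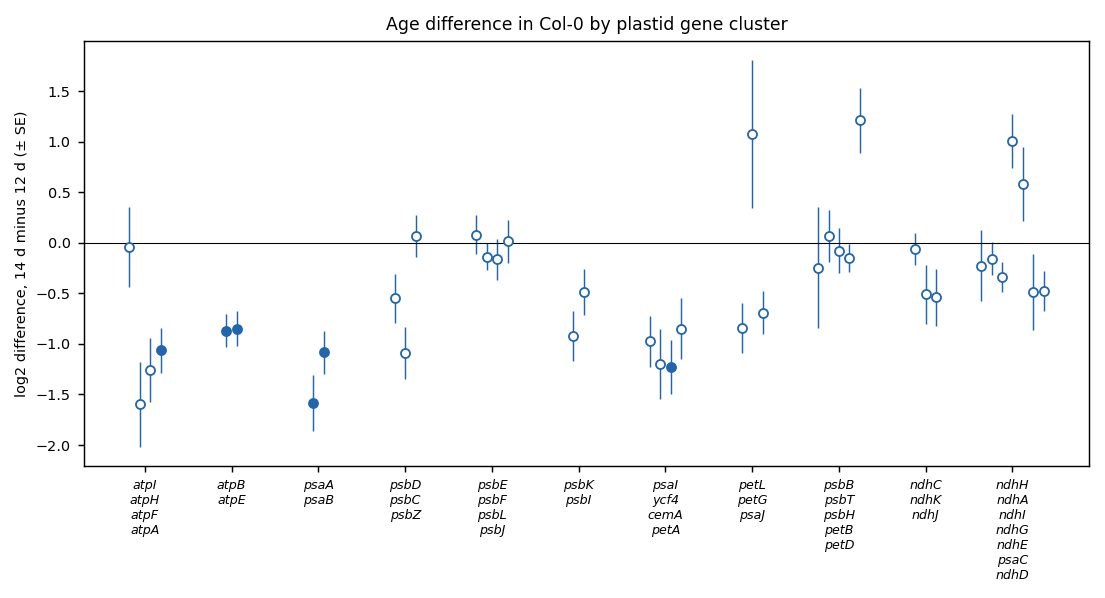
Log2 difference of Col-0 at 14 d minus 12 d (vertical axis, with SE) for the members of 11 plastid gene clusters, in the order named on the horizontal axis; filled points passed the threshold. Members of psaI-ycf4-cemA-petA lie together between -0.85 and -1.23, while petD at 1.21 lies above the rest of its cluster.

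The brightest probe set of an array read 29491 to 37797 at 12 d and 25717 to 29650 at 14 d, and the part of this in the differences with age was not tested.

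Other lists give the setting of this change. The 23 other plastid-encoded probe sets, largely genes for ribosomal proteins and RNA polymerase, had a median of -0.67 with age, with 3 above 0. There 4 fell, where 0.8% of all probe sets did, among them rpl16 (-2.20 ± 0.274, adjusted p = 0.00304) and rps4 (-1.39, adjusted p = 0.0325). Only 1 rose, rps14, where 2.63% of all did. The 21 mitochondria-encoded probe sets had a median of 0.43 with 17 above 0, where 51.1% of all were. They stand for fewer genes, since nad1 and nad5 have several probe sets each, and some, such as nad2 and nad7, read near or under the offset. Of the 21, 4 rose, where 2.63% of all probe sets did. The smallest p was for a probe set of nad1, a subunit of respiratory complex I (1.09, adjusted p = 0.00894). Of 63 nuclear photosynthesis genes listed, 11 were paired with a probe set. With age none of the 11 passed with limma. At an unadjusted p under 0.05, 5 lay below 0, where 6.56% of all probe sets did, and 0 above. Of the 11, 10 lay below 0, with a median of -0.38, and LHCB4.3, for a minor light-harvesting protein, was the lowest (-1.09, adjusted p = 0.0646). Of 14 root markers, 3 were paired (EXPA7, EXPA18 and PYK10), and all 3 lay above 0 with age (median 0.64). Their summed signal was 10235 to 14873 on the arrays of 12 d and 15070 to 17555 on those of 14 d, nearly all of it from PYK10. The median of the 3, centred per probe set, overlapped between the ages, with -0.391 to 0.104 at 12 d and -0.0515 to 0.457 at 14 d. The part of root RNA in the members' values was not tested. Of 19 genes for plastid transcription none was paired, and of 12 for plastid RNA processing only CRP1 was (0.20).

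In etr1 against Col-0 at 12 d, which asks what the loss of ethylene perception does, most members lay slightly below the wild type but none was called. The background was 0.0967% of all probe sets higher and 0.11% lower. The median was -0.30 against 0.01 over all probe sets, and 8 of 46 lay above 0, where 52.7% of all did. At an unadjusted p under 0.05 there were 4 members below the wild type (8.7%, against 3.92% of all) and 0 above (against 4.84%): psbA, psbF, ndhD and atpA. Both etr1 arrays lay below both Col-0 arrays for 25 members (54.3%, against 15.4%), and above for 1, psbM (against 19.2%). Without etr1 replicate 1 the median was -0.21, and without replicate 2 it was -0.44.

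The D1 gene psbA read 3385 and 3905 in etr1, under both Col-0 values given above (-0.82 ± 0.283, adjusted p = 0.409). It was the lowest of photosystem II, and psbM, for a small subunit, the highest, with 27567 and 26877 in etr1 and 21195 and 18629 in Col-0 (0.45). psbF, for a subunit of cytochrome b559, read 11729 and 11843 in etr1 and 15059 and 15500 in Col-0 (-0.37 ± 0.133, adjusted p = 0.426). For photosystem I the values ran from -0.75 for psaC to -0.09 for psaJ, and the latter was 0.17 after quantile normalization. For the ATP synthase they ran from -0.88 for atpH to -0.30 for atpE, with all 6 below 0 and a median of -0.52. That median was -0.21 without etr1 replicate 1 and -0.84 without replicate 2. NDH members ran from ndhD (-0.61 ± 0.201) to ndhF (0.05), and cytochrome b6f from petD (-0.39) to petG (0.58). Among the further genes, ycf3 stood at -0.51 and rbcL at -0.16.

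In ein2 against Col-0 at 14 d, the other block in ethylene signalling, most members lay slightly above the wild type, and again none was called (0.0747% of all probe sets were called higher and 0.149% lower). The median was 0.21 against 0.00 over all probe sets, and 37 of 46 lay above 0, where 50.3% of all did. Unadjusted p-values under 0.05 were found for 4 members above (8.7%, against 2.68% of all) and 0 below (against 2.67%): ndhD, ndhH, ndhJ and psbT. Both ein2 arrays lay above both wild-type arrays for 16 members (34.8%, against 20.5%), and below for 2, psbF and petG (4.35%, against 20%).

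These values rested largely on 1 array. Without ein2 replicate 1 the median was 0.10, and without replicate 2 it was 0.36. ndhD, for a membrane subunit of NDH, read 8236 and 6013 in ein2 and 4196 and 5455 in Col-0 (0.55 ± 0.201, adjusted p = 0.72). ndhH, for a subunit of the arm that faces the stroma, read 1614 and 1047 against 653 and 803 (0.80). psbB, for the antenna protein CP47, read 7903 in ein2 replicate 1 and 2375 in replicate 2, against 1950 and 3281 in the wild type, so that its value of 0.77 came from replicate 1. Similarly atpH read 4954 and 1592 and rbcL 3144 and 1508, against 1733 and 2242, and 1239 and 1457, in the wild type. Both the higher and the lower ein2 reading of atpH lay outside the wild-type range. The median of NDH was 0.32, or 0.11 without replicate 1, and that of ATP synthase was 0.35, or 0.01. The remaining ends of the complexes were psaC (0.76) and psaJ (0.20) in photosystem I, psbF (-0.17) in photosystem II, petA (0.28) and petG (-0.77) in cytochrome b6f, and ndhF (-0.05) in NDH. In the ATP synthase they were atpF (0.53) and atpB (0.08), and among the further genes rbcL (0.68) and ycf4 (0.14).

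The etr1 and ein2 values were compared directly, since each has wild-type arrays of its own. etr1 was sampled at 12 d and ein2 at 14 d, so that genotype and age cannot be told apart in this difference. No member was called for the difference between the effects by limma, and 2 of all probe sets were, 1 in each direction (0.0044% each). The median difference was -0.45, with 4 of 46 above 0, where 52.2% of all were. At an unadjusted p under 0.05 there were 12 members below 0 (26.1%, against 1.86% of all probe sets) and 0 above (against 2.11%). The smallest adjusted p from limma was that of ndhD (-1.16 ± 0.285, adjusted p = 0.86). psaC had the lowest value (-1.50), followed by atpH (-1.39). The median by complex was -0.87 for ATP synthase, -0.68 for photosystem I, -0.67 for NDH, -0.30 for photosystem II and -0.14 for cytochrome b6f, where petG reached 1.35. Of the 46 members, 33 lay below 0 in etr1 and above 0 in ein2. In all, 38 lay below 0 in etr1 and 37 above 0 in ein2, so that much of this overlap follows from those counts. Across the members, the values in the 2 comparisons had a Spearman correlation of -0.509, where over all probe sets it was 0.211. That correlation was 0.0118 without ein2 replicate 1, -0.0975 without Col-0 replicate 1 of 14 d and -0.0989 without etr1 replicate 1. Members of a comparison share arrays and are not independent.

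**Figure D5:**
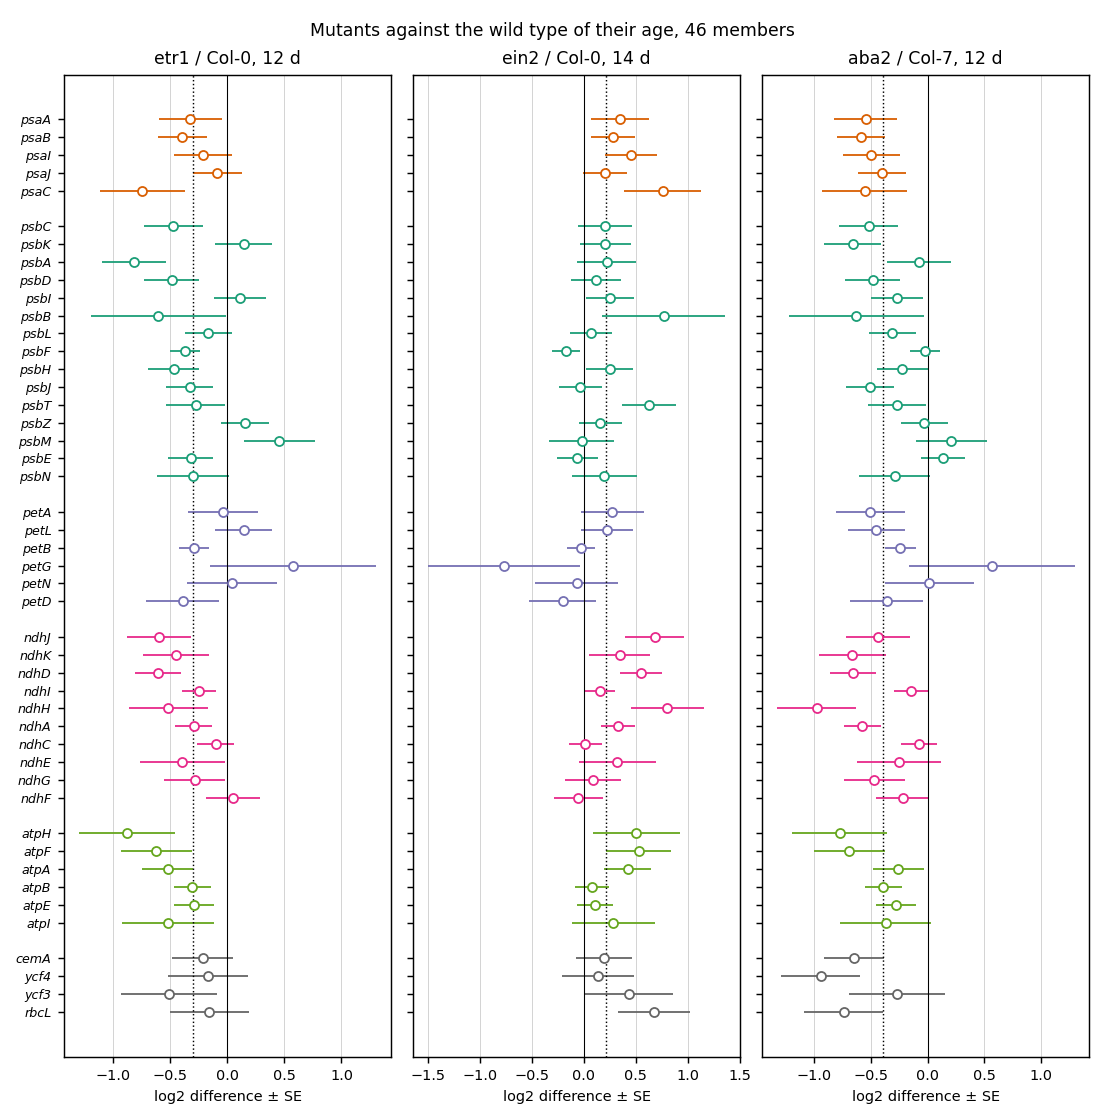
Log2 difference (with SE) of each member in etr1 against Col-0 at 12 d, ein2 against Col-0 at 14 d and aba2 against Col-7 at 12 d, in the same order from psa to the further genes. No point is filled, and the dotted medians lie at -0.30, 0.21 and -0.40.

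In aba2, which lacks normal abscisic acid synthesis, nearly every member lay below Col-7 and none was called (0.158% of all probe sets were called higher and 0.11% lower). The median was -0.40 against -0.02 over all probe sets, and 4 of 46 lay above 0, where 46.7% of all did. At an unadjusted p under 0.05 there were 10 below (21.7%, against 5.48% of all) and 0 above (against 5.33%). They were psaB, psbJ, psbK, ndhA, ndhD, ndhH, ndhK, atpB, cemA and ycf4. Both aba2 arrays lay below both Col-7 arrays for 25 members (54.3%, against 20.7%), and above for 0 (against 17.7%). Leaving out each array in turn, the median stayed between -0.46 and -0.35.

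The smallest p was that of ndhA, for a membrane subunit of NDH, which read 6427 and 5126 in aba2 and 7977 and 9235 in Col-7 (-0.58 ± 0.163, adjusted p = 0.23). ndhH was the lowest member, with 347 and 734 against 936 and 1172 (-0.98 ± 0.35). atpB read 26355 and 23743 against 31961 and 33602, without overlap (-0.39 ± 0.164, adjusted p = 0.428). Some members differed widely between the 2 aba2 arrays. petA read 14358 and 6282, and its value was -0.50, but 0.09 without aba2 replicate 2 and -1.1 without replicate 1. cemA (13381 and 7111) and ycf4 (7852 and 3354), which lie beside petA, had the same array lower. In photosystem I the values ran from psaB (-0.59) to psaJ (-0.40), in photosystem II from psbK (-0.66) to psbM (0.21), and in cytochrome b6f up to petG (0.57). In NDH the highest was ndhC (-0.08), in the ATP synthase atpH was at -0.78 and atpA at -0.26, and among the further genes ycf4 was at -0.94 and ycf3 at -0.27. psbA read 4296 and 6540, which overlapped the Col-7 values of 6428 and 4861 (-0.08). rbcL read 790 and 808, below 1055 and 1769 (-0.74).

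Set against Col-0 instead, aba2 gave a like picture. Again no member was called (0.734% of all probe sets higher, 0.114% lower), the median was -0.41, and 5 of 46 lay above 0, where 46.2% of all did. psaA was the lowest (-1.16 ± 0.277, adjusted p = 0.107), and 1 member was called when Col-0 replicate 2 was left out. Unadjusted p-values under 0.05 were again found for 10 members, all of them below 0 (21.7%, against 4.6% of all, and 5.56% of all above). Both aba2 arrays lay below both Col-0 arrays for 28 members (60.9%, against 18.6%), and above for 1, ndhF (2.17%, against 15.5%). In photosystem II the values ran from psbD (-0.86) to psbE (0.11), in cytochrome b6f from petA (-0.51) to petG (0.62), and in NDH from ndhH (-0.70) to ndhF (0.19). In the ATP synthase they ran from atpH (-0.81) to atpI (-0.38), in photosystem I up to psaJ (-0.29), and among the further genes from ycf4 (-0.93) to ycf3 (-0.51). The 2 comparisons share the aba2 arrays.

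The change with age and the aba2 values against Col-7 share no array, and 33 of 46 members lay below 0 in both. With age 33 lay below 0 in all, and in aba2 42 did, so that much of this overlap follows from those counts. Across the members their Spearman correlation was 0.541, and over all probe sets it was 0.16. It was 0.199 without aba2 replicate 2 and 0.302 without Col-7 replicate 2. Between ein2 and aba2 it was -0.592 across the members and -0.208 over all, with -0.159 without aba2 replicate 1 and -0.224 without ein2 replicate 1. The etr1 and aba2 values, which also share no array, were both below 0 for 37 members. With 38 below 0 in etr1 and 42 in aba2, much of this overlap also follows from those counts. The correlation of the etr1 and aba2 values was 0.333 across the members and -0.0179 over all probe sets. It was -0.131 without aba2 replicate 1 and 0.61 without aba2 replicate 2.

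Col-7 and Col-0 were compared at the same age, 12 d. No probe set was called between them by limma (0% in either direction), and 1 member, psaA, had an unadjusted p under 0.05 (2.17%, against 2.24% of all probe sets lower and 3.22% higher). psaA read 4598 and 6160 in Col-7, both below the Col-0 arrays (-0.62 ± 0.277, adjusted p = 0.908). The median was -0.02, with 18 above 0 and 28 below, and 50.4% of all probe sets above. Both Col-7 arrays lay above both Col-0 arrays for 6 members (13%, against 12.4%), and below for 7 (15.2%, against 12.2%), close to the background. In photosystem I psaJ was the highest (0.12), and photosystem II ran from psbD (-0.38) to psbK (0.27). Cytochrome b6f ran from petB (-0.01) to petN (0.12), NDH from ndhJ (-0.12) to ndhF (0.41), ATP synthase from atpA (-0.19) to atpI (-0.02), and the further genes from ycf3 (-0.24) to rbcL (0.13). Each mutant median, at -0.30, 0.21 and -0.40, lay farther from 0 than this one. Arrays of the same group differed by similar amounts, however. The median over members of replicate 1 minus replicate 2 was 0.39 in ein2, -0.25 in Col-0 at 14 d and -0.24 in etr1. It was 0.08 in Col-0 at 12 d, -0.07 in Col-7 and 0.004 in aba2.

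In the mutants the other plastid-encoded probe sets had medians on the same side of 0 as the photosynthesis members. Their median was -0.22 in etr1, 0.32 in ein2 and -0.40 in aba2 against Col-7, beside -0.30, 0.21 and -0.40 for the photosynthesis members. None of the 23 was called by limma in these 3 comparisons. At an unadjusted p under 0.05, 3 were lower in etr1 (against 3.92% of all probe sets) and 0 higher. In ein2 6 were higher (against 2.68%) and 0 lower, and in aba2 5 were lower (against 5.48%) and 0 higher. In aba2 against Col-0 their median was -0.41, and 1 of them, rps2, fell (-1.26 ± 0.212, adjusted p = 0.0234), where 0.114% of all probe sets did. The nuclear photosynthesis probe sets lay at -0.27 in etr1, with 0 of 11 above 0, at -0.10 in ein2 and at -0.14 in aba2. In ein2 they therefore lay on the other side of 0 from the plastid-encoded members. The mitochondria-encoded probe sets lay at 0.02, 0.20 and -0.19. No difference between these lists was tested.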

How the data were processed

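The authors, per the labels, extracted total RNA (Qiagen RNeasy plant kit), hybridised biotin-labelled samples to ATH1 arrays and made the deposited values with Microarray Suite 5.0, as MAS5 signal intensity. The deposited intensities were linear and already scaled to 1 trimmed mean. No detection calls, scan dates or batches were used here, so age and any day of processing cannot be told apart. Gene names came from the annotation of the array platform (13513 paired with 1 gene, 503 with several, 8730 with none). No filter was applied. An offset of 50 was added, log2 taken, and 6 group means fitted to the 12 arrays with limma 3.58.1 in R 4.3.3 (eBayes with trend, 6 residual and 4.30 prior degrees of freedom, Benjamini-Hochberg adjustment over 22746 probe sets, threshold 0.05). The procedure was run on simulated data with planted differences, and the check was that these were recovered on average. The simulated noise was independent, without the shifts shared by members of an array, so it does not cover them.

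Members and lists were chosen with earlier results of these data known. By rule, psbA, psaA, petB, ndhF, atpB and rbcL, the members called, and the lowest and highest member of each complex were named in each comparison. Members and neighbouring genes named beyond these were chosen after seeing the data. So were the gene clusters, the sorting by brightness, the comparison of 4 arrays with 8, and the leaving out of arrays from correlations.

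Alternatives were offsets of 10 and 150, quantile normalization, centring on the median, filters at the 40th and 60th percentile of mean signal, eBayes without trend, the replicate number as a block, a fit of the compared groups alone, and leaving out each array.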

Additional observations from a re-analysis of the deposited data

Results flagged for a closer look

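Control probe sets for ribosomal RNA enter no comparison above. The 5S rRNA probe set read 216.4 and 431.4 in Col-0 at 14 d and 352.2 and 233.1 in ein2, beside 7.07 to 46.5 on the 8 arrays of 12 d, so that all 4 older arrays lay above all younger ones, and ein2 and Col-0 at 14 d overlapped. The 25S rRNA probe set read 3537 in aba2 replicate 2, above both Col-7 arrays but under the 4442 of Col-0 replicate 2 at 12 d. It read 502.0 in ein2 replicate 1, above both arrays of Col-0 at 14 d.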

How the results depend on the processing

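Over the settings other than leaving out an array, 222 medians stayed within the spread between replicates and 9 did not, and 964 values of named members kept their direction and their side of the threshold, while 12 lost a call, 7 gained one and 4 changed sign. The cause of these changes was not tested unless the setting itself gives it. Quantile normalization moved the age comparison most: 2 members were called, and the medians were -0.26 for all members, -0.79 for photosystem I, 0.0370 for photosystem II, 0.0121 for NDH and -0.65 for ATP synthase. It gave 4 members over the 6 groups, a photosystem II median of -0.26 in etr1 and of -0.22 for the difference between etr1 and ein2. It also turned psaJ in etr1 to 0.17, petB in ein2 to 0.0392, petB with age to 0.20 and atpB between the wild types to 0.00431. With arrays centred on the median, 11 members were called with age and the photosystem II median was -0.24. The median of all probe sets shifted by -0.10 there. Filters at the 40th and 60th percentile of mean signal, which test fewer probe sets, kept 45 and 41 members and called 11 and 11, with atpH (adjusted p = 0.0499), petD (0.0476) and psbC (0.0324) among those gained under the first, and the stricter one put the median difference between etr1 and ein2 at -0.60. An offset of 150 left 1 probe set called for that difference. A fit of the compared groups alone, which has fewer arrays, called 0 members and 0 probe sets with age, 0 probe sets in etr1, 96 in ein2, 0 in aba2 against Col-7, 0 against Col-0, and 0 for the difference. With the replicate number as a block, 9 members were called with age, psbC among them (adjusted p = 0.042), and 1 probe set for the difference. The numbers were not taken to pair the samples, since the deviations of same-numbered arrays from their group means correlated at -0.185 to 0.447 over 15 pairs of groups, with 3 over 0.1. These 3 were the pairs among the groups of the aba2 comparisons: Col-0 with Col-7 at 12 d (0.447), aba2 with Col-0 (0.378) and aba2 with Col-7 (0.252). Over the 46 members the same correlations ran from -0.575 to 0.621, with 8 of 15 over 0.1. With the block, 0 members were called in either aba2 comparison, and 0 probe sets between Col-7 and Col-0.

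Leaving out each array in turn gave 7 to 244 probe sets called in etr1. Medians in etr1 ran from lowest to highest for all members -0.44 to -0.21, ATP synthase -0.84 to -0.21, cytochrome b6f -0.20 to 0.00918, photosystem I -0.49 to -0.0878, photosystem II -0.38 to -0.23. Among single members in etr1, the ranges were ndhF -0.0132 to 0.11, petG -0.28 to 1.44, psaJ -0.22 to 0.0441, rbcL -0.48 to 0.16.

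In ein2 it gave 12 to 16 probe sets called. Medians in ein2 ran from lowest to highest for all members 0.10 to 0.36, ATP synthase 0.00906 to 0.64, cytochrome b6f -0.36 to 0.18, NDH 0.11 to 0.55, the further genes 0.0400 to 0.64, photosystem I 0.16 to 0.56, photosystem II 0.12 to 0.23. Among single members in ein2, the ranges were atpB -0.0336 to 0.19, ndhF -0.46 to 0.35, petB -0.0637 to 0.0150, psaJ -0.0104 to 0.42, psbA -0.0877 to 0.53, psbB -0.0902 to 1.62, ycf4 -0.16 to 0.44.

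In aba2 against Col-7 it gave 0 to 39 probe sets called. Medians in aba2 against Col-7 ran from lowest to highest for cytochrome b6f -0.36 to -0.0180, the further genes -0.91 to -0.41, photosystem I -0.68 to -0.36, photosystem II -0.38 to -0.11. Among single members in aba2 against Col-7, the ranges were ndhC -0.29 to 0.13, petA -1.10 to 0.0898, petG -0.72 to 1.86, psbA -0.38 to 0.22, psbM -0.11 to 0.53, ycf3 -0.77 to 0.23.

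In aba2 against Col-0 it gave 0 to 1 members and 27 to 420 probe sets called. Medians in aba2 against Col-0 ran from lowest to highest for cytochrome b6f -0.27 to 0.0142, photosystem I -0.79 to -0.45, photosystem II -0.57 to -0.13. Among single members in aba2 against Col-0, the ranges were petA -1.10 to 0.0861, petG -0.24 to 1.48, psbA -0.58 to 0.0205, psbD -1.24 to -0.48, psbE -0.0242 to 0.25.

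Between Col-7 and Col-0 it gave 0 to 109 probe sets called. Medians between Col-7 and Col-0 ran from lowest to highest for photosystem II -0.19 to -0.0344. Among single members between Col-7 and Col-0, the ranges were atpB -0.0518 to 0.0203, atpI -0.0700 to 0.0394, ndhJ -0.35 to 0.12, petB -0.0631 to 0.0479, petN -0.11 to 0.36, psbD -0.76 to 0.000460, psbK -0.0668 to 0.61, rbcL -0.23 to 0.49, ycf3 -0.74 to 0.26.

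With age it gave 0 to 8 members and 82 to 1153 probe sets called. Medians with age ran from lowest to highest for all members -0.41 to -0.24, cytochrome b6f 0.00595 to 0.58. Among single members with age, the ranges were atpA -1.29 to -0.83, atpB -0.94 to -0.80, atpE -0.88 to -0.82, atpI -0.39 to 0.31, cemA -1.49 to -0.97, ndhF 1.35 to 1.67, psaA -1.85 to -1.32, psaB -1.20 to -0.96, psbC -1.25 to -0.92, rbcL -0.0503 to 0.26.

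For the difference between etr1 and ein2 it gave 0 to 5 probe sets called. Medians for the difference between etr1 and ein2 ran from lowest to highest for all members -0.64 to -0.37, ATP synthase -1.30 to -0.47, cytochrome b6f -0.33 to 0.11, NDH -0.92 to -0.42, the further genes -0.95 to -0.33, photosystem I -0.87 to -0.49, photosystem II -0.42 to -0.22. Among single members for the difference between etr1 and ein2, the ranges were ndhF -0.30 to 0.51, psbM -0.0256 to 0.97.

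Over the 6 groups it gave 2 to 9 members and 711 to 3110 probe sets called.

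The number of arrays limits the precision of these values, and signals near or under the offset, such as those of ndhF at 12 d, are the least certain.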
